A study of Mus musculus with 16 samples.

Results

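The V338Y mutation was compared with wild type in the brain of 19-month-old mice. Of the 16 sequenced mice of the series, the 8 labelled 19 months were used, 4 with the genotype MRPS5 WT (mice 12 to 15) and 4 with MRPS5 V338Y (mice 17 to 20). The other 8 mice, 4 of each genotype at 3 months, were separate animals and serve below as a comparison at a younger age. According to the study's methods the mutants were homozygous knock-in animals, all mice were female and the RNA came from cortex, whereas the labels give brain as the tissue and name muscle in the extraction step. All mice of a genotype carry the same targeted allele, so the mutation and whatever else was inherited with it cannot be told apart in these groups. The 8 mice of 19 months had Xist, the RNA of the inactive X chromosome, at 683 to 1150 CPM and the Y-linked Ddx3y, Uty, Eif2s3y and Kdm5d at 0. All 8 mice of 3 months had Xist at 0.455 to 1.25 CPM and Ddx3y at 102 to 130 CPM, against the stated sex, so age and sex cannot be told apart wherever the ages are compared below. Of 39179 gene identifiers in the deposited table, 16420 reached 10 counts in 2 or more of the 4 animals of either group and were tested with edgeR's quasi-likelihood test, with p-values adjusted over all of them. A gene is called here when its adjusted p is under 0.05. Values of single mice are given as CPM, counts scaled to a common library total after TMM, and differences as the log2 fold change, V338Y minus wild type, ± its standard error.

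MRPS5 belongs to the small subunit of the ribosome inside mitochondria, which translates the proteins encoded by mitochondrial DNA, all of them parts of the oxidative phosphorylation complexes. The remaining subunits of those complexes are encoded in the nucleus and imported. Changes in this part of the ribosome can make decoding less accurate, so that wrong amino acids enter the proteins made in mitochondria. The cortex mixes neurons, astrocytes, oligodendrocytes, microglia and vessels, with meninges on its surface. In such bulk RNA, fewer cells of a type and less RNA per cell cannot be told apart.

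Mrps5 lies on chromosome 2 at chr2:127587222-127606829 (GRCm38). The valine codon named in V338Y is in exon 11 of the 12 exons of its GENCODE transcript, at bases 127602459 to 127602461. In the reference it is GTC, for valine, in a protein of 432 residues. The reference coding strand from codon 328 to codon 348 is shown here because the mutation lies in it, with the valine codon in capitals.
Mrps5 reference: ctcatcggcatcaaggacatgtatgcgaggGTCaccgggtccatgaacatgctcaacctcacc
The counts per gene do not show the edited bases. Mrps5 was at 30.9, 28.3, 31.3 and 27.5 CPM in wild-type mice 12 to 15 and at 31.1, 30.7, 28.8 and 27.4 CPM in V338Y mice 17 to 20. The groups overlapped, and the log2 fold change was -0.01 ± 0.07 (adjusted p = 0.96). The amount of Mrps5 RNA therefore does not separate the genotypes and gives no check of the labels.

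Library totals were between 6181448 and 12658661 counts in wild-type and between 10029898 and 19573427 counts in V338Y mice, and a count of 0 allowed up to 0.485 CPM in the smallest library (3 counts, counting error only). No pair of mice within a group agreed within sampling noise. Neuronal (Map2, 1934 to 2233 CPM), astrocyte (Slc1a2, 3636 to 4764 CPM), oligodendrocyte (Mbp, 2545 to 2968 CPM) and cortical projection neuron markers (Slc17a7, 422 to 545 CPM) were present in all 8 libraries. V338Y mice 17 and 18 stood apart in choroid plexus markers, whose summed level over 16 genes was 3507 and 3883 CPM, against 718 and 866 CPM in V338Y mice 19 and 20 and 858 to 2004 CPM in wild-type mice.

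At 19 months, 512 of the 16420 genes were called, 3.12% of those tested. Of these, 196 were higher (1.19%) and 316 lower (1.92%) in V338Y. Unadjusted, 2660 genes (16.2%) had a p under 0.05. The median absolute log2 fold change of the calls was 0.30, and 211 of the 512 changed by less than 1.2-fold and 61 by at least 2-fold. The number was 294 without wild-type mouse 13, 287 without V338Y mouse 19 and 116 in a fit of all 16 mice. With the choroid plexus markers as a covariate it was 784. Without TMM scaling, by library size only, 57.6% of 620 calls were higher, against 196 of 512 with TMM.

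The calls were dense around Mrps5. Within 20 Mb of its start, 42 of 310 tested genes were called (13.5%), 17 higher and 25 lower, whereas elsewhere in the genome it was 470 of 16110 genes (2.92%), 179 higher and 291 lower. The densest stretch was the 5 to 10 Mb before Mrps5, with 24 calls among 89 genes (27%). Within 5 Mb on both sides it was 12 of 122 (9.84%), from 10 to 20 Mb 4 of 81 (4.94%) and from 20 to 40 Mb 6 of 344 (1.74%). The other chromosomes and the rest of chromosome 2 lay between 1.51% and 4.72%. The share was not tested. Called genes near Mrps5 also changed more, with a median absolute log2 fold change of 0.42 against 0.29 for called genes elsewhere. In 41 of the 42 the values of the groups did not overlap. These genes were picked by their call in the same mice, so little overlap largely follows from the choice. Over all genes tested, called or not, 9.35% had groups without overlap (4.46% higher and 4.9% lower in V338Y), which is therefore no like comparison.

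**Figure D1:**
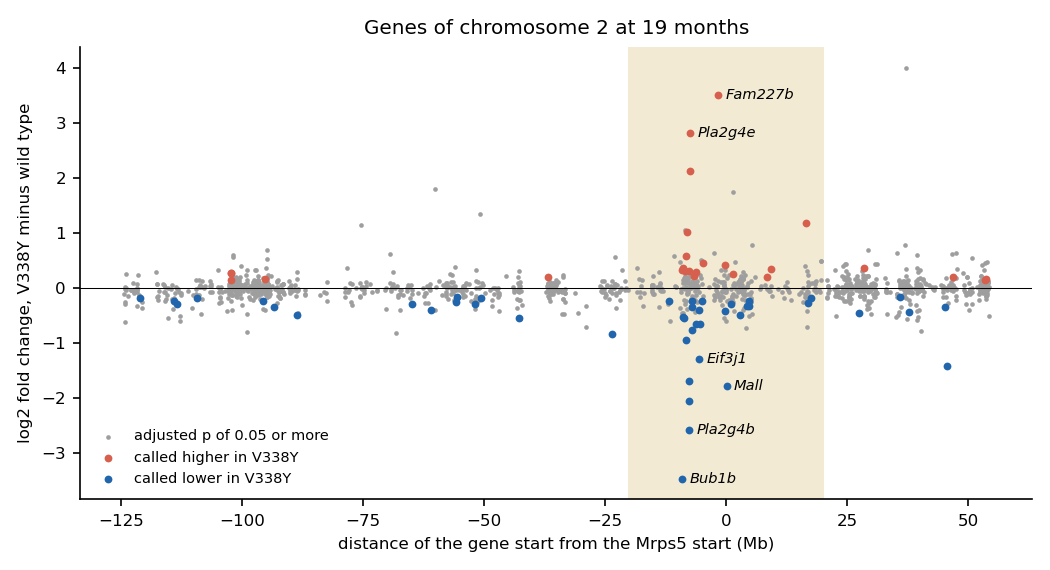
Log2 fold change (V338Y minus wild type, 19 months) of the tested genes of chromosome 2 against the distance of their start from the Mrps5 start in Mb; each point is a gene, coloured where called, and the shaded band marks 20 Mb on both sides. The 42 called genes in the band include Pla2g4e at 2.82 and Bub1b at -3.46, while 29 called genes of the chromosome lie outside it.

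Neighbouring phospholipase genes near Mrps5 changed in opposite directions. Pla2g4e, which encodes a cytosolic phospholipase A2 that transfers acyl chains between phospholipids, starts 7.42 Mb before Mrps5 (chr2:120166412-120245335). It was at 5.17, 5.73, 5.92 and 5.79 CPM in the wild-type mice and at 40.02, 36.9, 42.6 and 38.8 CPM in the V338Y mice. The V338Y values lay far above the wild-type ones and within a narrow range, a 7.05-fold difference (log2 fold change 2.82 ± 0.09, adjusted p = 1.09e-20). Its neighbour Pla2g4b, another cytosolic phospholipase A2 gene (7.55 Mb before), moved the opposite way. It was at 5.72, 5.97, 4.87 and 4.80 CPM in wild-type and at 0.787, 0.975, 0.967 and 0.835 CPM in V338Y mice, without overlap (-2.57 ± 0.19, adjusted p = 6.28e-11). Jmjd7, a gene for a JmjC-domain hydroxylase next to it, fell by 1.68 on the log2 scale (adjusted p = 2.34e-06), and the gene model Gm28042, which overlaps both, by 2.06 (adjusted p = 4.14e-11). Reads of these 3 overlapping genes could be split between them by the counting. The list of phospholipase A2 and lysophospholipid genes also holds Jmjd7. Of its 11 tested genes, Pla2g4e rose and Pla2g4b and Jmjd7 fell (27.3%), beside 3.12% of all genes called. All 3 lie within 20 Mb of Mrps5, where 13.5% of tested genes were called. The median of the list was -0.02, beside -0.001 over all genes.

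Genes of cell division and of protein synthesis also changed near Mrps5. Bub1b encodes BubR1, a kinase-like protein of the spindle checkpoint that delays chromosome separation. It was at 4.70, 5.001, 4.02 and 4.14 CPM in wild-type and at 0.197, 0.455, 0.356 and 0.536 CPM in V338Y mice. The V338Y values were close to the level that 3 counts give in a library, and the log2 fold change was -3.46 ± 0.25 (adjusted p = 2.89e-11). Haus2, a subunit of the augmin complex of the spindle, was at 18.1, 15.97, 18.1 and 22.7 CPM against 11.5, 11.4, 10.3 and 10.2 CPM. Its groups were apart, and it fell by 0.77 (adjusted p = 2.6e-06). Pcna, the sliding clamp of DNA replication, lies 4.66 Mb after Mrps5 and fell by 0.32 (adjusted p = 0.00735). Pcna-ps2, a 99.2% identical copy on chromosome 19, was higher in V338Y. Pcna and this copy together were at 27.3 to 29.8 CPM in wild-type and 22.4 to 26.7 CPM in V338Y mice. Of 10 tested genes on the list of spindle checkpoint and cell division, Bub1b was the only one called, beside 3.12% of all genes. Eif3j1, a gene of a translation initiation factor subunit 5.56 Mb before Mrps5, was at 16.52, 17.2, 20.5 and 17.7 CPM in wild-type and at 6.79, 6.05, 7.89 and 8.23 CPM in V338Y mice. Every V338Y mouse had less than the lowest wild-type mouse (-1.29 ± 0.10, adjusted p = 3.08e-10). Mfap1b, a gene related to RNA splicing, fell by 0.65 (adjusted p = 8.87e-05), and Srp14, part of the particle that directs nascent proteins to the endoplasmic reticulum, rose by 0.34 (adjusted p = 0.000625).

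B2m, whose product beta-2-microglobulin is the light chain of every MHC class I molecule, also lies in the window (5.44 Mb before Mrps5, chr2:122147686-122153083). It was at 212, 194, 204 and 207 CPM in wild-type and at 134, 125, 133 and 130 CPM in V338Y mice. No V338Y mouse reached 140 CPM and no wild-type mouse was under 190 CPM, and B2m fell by 0.65 ± 0.04 (adjusted p = 4.52e-13).

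The other 31 called genes near Mrps5 included several of metabolism and signalling. Ivd, the isovaleryl-CoA dehydrogenase of leucine breakdown in mitochondria, fell by 0.54 (adjusted p = 1.94e-08) and Pak6, a kinase downstream of small GTPases, by 0.53 (adjusted p = 2.37e-07). Ckmt1, the mitochondrial creatine kinase, was at 124, 122, 124 and 123 CPM against 148, 152, 154 and 149 CPM, and rose by 0.29 (adjusted p = 5.63e-06), while Gatm, which makes the creatine precursor guanidinoacetate, fell by 0.24 (adjusted p = 0.000625). Exd1 rose by 1.03 (adjusted p = 0.000538) and Rhov by 0.58 (adjusted p = 0.039), while Spint1, an inhibitor of serine proteases, fell by 0.95 (adjusted p = 0.00224). Rhov was called in 9 of 20 alternative settings. Mertk, a receptor with which glia take up dead cells, fell by 0.28, Kcnip3, a calcium-binding partner of potassium channels, by 0.42, and Spg11, a gene of hereditary spastic paraplegia, by 0.39 (adjusted p at most 0.000372 for each). Fahd2a, only 0.15 Mb before Mrps5, rose by 0.42 (adjusted p = 0.00112). Fam227b (1.6 Mb before) had 2 counts over the 4 wild-type and 41 over the 4 V338Y mice, a ratio of rates of 13.6 with an exact 95% interval of 3.54 to 116 for counting error, and Mall (0.12 Mb after) was at 1.37 to 2.32 CPM against 0.356 to 0.775 CPM (adjusted p = 0.000538). Higher as well were Ccdc9b, Zfyve19, Mapkbp1, Gm13997, Tmem62, Bloc1s6, Ttl, Lamp5, Mkks and Gm5535, and lower Meis2, Snap23, Stard9, Cpxm1, Rassf2, Cds2, Rbbp9 and Slc24a3. Lamp5, a marker of upper-layer and some inhibitory neurons, was the called gene whose groups overlapped.

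The 3-month-old mice, which differ from the old ones also in X- and Y-linked transcripts, gave the same direction for most of the genes near Mrps5. Of the 41 with a value at 3 months, 37 (90.2%) had the same sign, 28 of them with an unadjusted p under 0.05 and 7 with an adjusted p under 0.05, while 10 of 16241 genes were called at 3 months in all (0.0616%) and 5.02% had an unadjusted p under 0.05. Of the 436 called genes elsewhere with a value, 188 (43.1%) had the same sign and 18 of these had an unadjusted p under 0.05. Haus2 differed by -0.77 at both ages and Eif3j1 by -1.29 at 19 and -1.24 at 3 months. The test of the difference between the ages called 9 of 16831 genes (0.0535%) and 1723 (10.2%) at an unadjusted p under 0.05, and the called ones all lay elsewhere. Without wild-type mouse 10 of the 3-month group this count was 1, and without V338Y mouse 14 of that group it was 57. Leaving out one 19-month mouse gave 4 to 14.

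Some genes near Mrps5 varied among the young wild-type mice. Pla2g4e was at 4.41, 8.47, 27.2 and 25.7 CPM in the 4 wild-type and at 44.7, 48.3, 55.3 and 45.4 CPM in the 4 V338Y mice at 3 months. Wild-type mice 11 and 12 of that age had several times the level of mice 9 and 10, yet remained under each V338Y mouse, and the log2 fold change was 1.54 ± 0.50 (adjusted p = 0.926). Bub1b was at 5.67, 2.44, 0.638 and 2.65 CPM in the young wild-type and at 0.183 to 0.67 CPM in the young V338Y mice, so that wild-type mouse 11 lay at the level of the mutants. In the old wild-type mice no such split was seen for Pla2g4e or Bub1b.

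**Figure D2:**
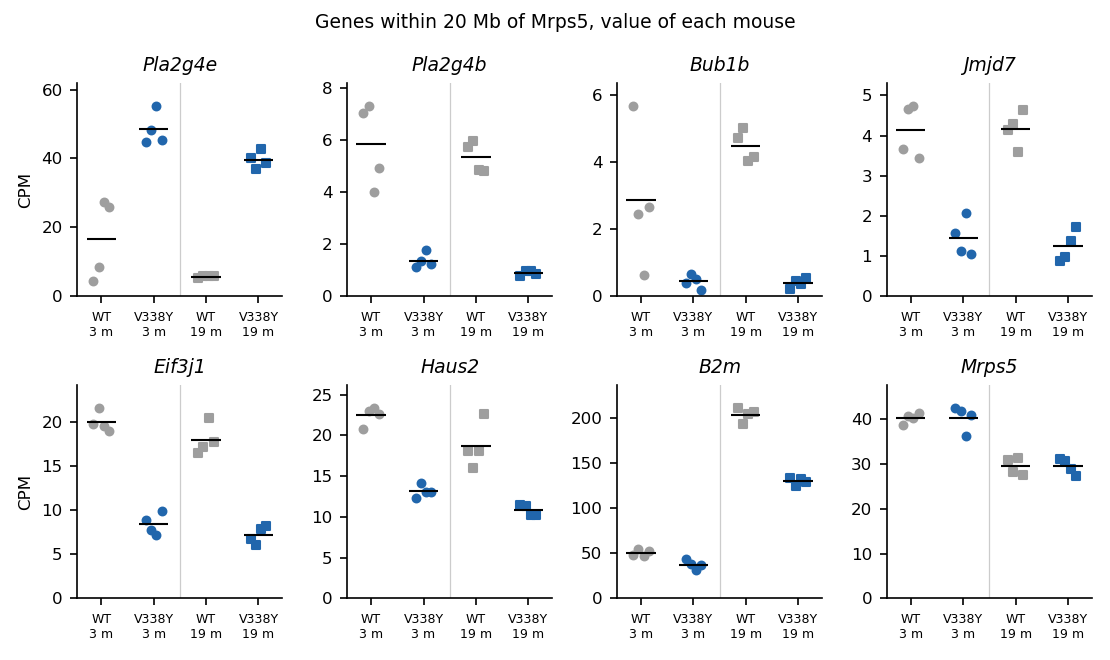
CPM of 8 genes within 20 Mb of Mrps5 in each mouse at 3 and 19 months; points are mice, grey for wild type and blue for V338Y, and bars are group means. Mrps5 is level between the genotypes, Pla2g4b, Jmjd7, Eif3j1 and Haus2 are lower in V338Y at both ages, and Pla2g4e and Bub1b spread widely in the 3-month wild-type mice.

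**Figure D3:**
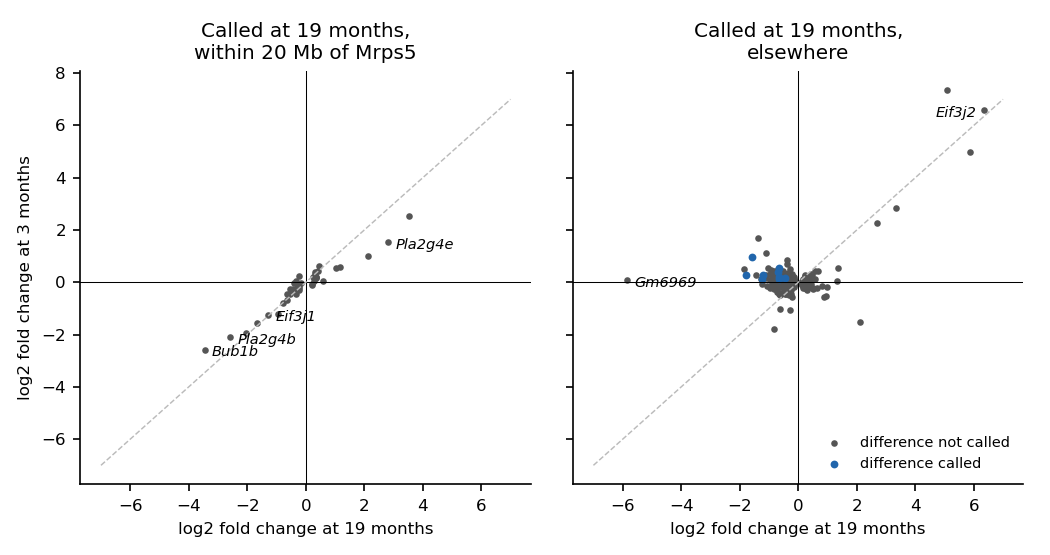
Log2 fold change at 3 months against that at 19 months for the genes called at 19 months, left for the 41 near Mrps5 and right for the 436 elsewhere; the dashed line marks equal values and blue points are the genes whose difference between the ages was called. Near Mrps5 the points follow the line, and elsewhere most lie near 0 at 3 months.

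Away from Mrps5, the clearest group was the interferon-inducible GTPases, enzymes of the guanylate-binding (Gbp) and immunity-related (Irg) families that interferons switch on and that act on the vacuoles of intracellular microbes. This group was chosen after its values were seen, so its count is a description. Of 17 tested members, 16 were called, all lower in V338Y and all without overlap of the groups, beside 1.92% of all genes called lower. Gbp11 was the exception, at 1.94 to 2.65 against 1.67 to 2.98 CPM. The called members lie on chromosomes 11 (8 of 8 tested), 3 (4 of 4), 5 (3 of 4) and 18 (1 of 1). The median log2 fold change was -0.95, with folds from 1.31 to 3.61. The summed level of the members was 282 to 296 CPM in wild-type and 143 to 157 CPM in V338Y mice.

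Promoters of these genes are shown because the members moved together. In the 250 bases before the gene start given by RefSeq (GRCm38.p6), 2 patterns were searched on both strands, GAAA repeated after a gap of 2 bases of any kind (the paired GAAA), the core to which interferon regulatory factors bind, and TTCNNNGAA, the core of sites for STAT dimers; they do not share bases in the windows shown. Of the 12 members with a promoter entry, 11 held the paired GAAA and 7 held TTCNNNGAA, whereas 3.46% and 8.13% of all 27025 genes with an entry did. Among called genes elsewhere, the paired GAAA was found in 21 of 198 lower (10.6%) and in 5 of 123 higher genes (4.07%). The lower genes include the GTPases, without which it was 10 of 186 (5.38%). Of the 16 class I genes with an entry, B2m among them, 2 held the paired GAAA (12.5%). A match describes the letters only. Capitals mark the matches of either pattern, and each line gives 90 bases, 5′ to 3′ on the strand of the gene.
Igtp (chr11:58199466-58199555, plus strand): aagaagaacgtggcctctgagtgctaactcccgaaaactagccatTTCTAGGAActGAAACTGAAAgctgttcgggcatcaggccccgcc
Irgm2 (chr11:58214868-58214957, plus strand): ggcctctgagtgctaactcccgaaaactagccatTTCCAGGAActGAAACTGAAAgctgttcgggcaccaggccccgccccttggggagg
Tgtp1 (chr11:48992279-48992368, minus strand): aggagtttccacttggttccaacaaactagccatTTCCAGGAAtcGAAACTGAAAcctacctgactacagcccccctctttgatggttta
Gbp2 (chr3:142620559-142620648, plus strand): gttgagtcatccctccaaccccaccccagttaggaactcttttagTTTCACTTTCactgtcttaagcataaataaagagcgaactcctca
Gbp7 (chr3:142530238-142530327, plus strand): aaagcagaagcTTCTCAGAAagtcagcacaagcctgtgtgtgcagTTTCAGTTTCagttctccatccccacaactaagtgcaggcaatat
B2m (chr2:122147503-122147592, plus strand): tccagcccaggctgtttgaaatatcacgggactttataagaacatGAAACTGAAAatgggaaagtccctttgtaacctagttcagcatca
In Igtp, Irgm2 and Tgtp1 both patterns stand side by side. Gbp2 and Gbp7 hold the paired GAAA on the opposite strand, where it reads as TTTC pairs.

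Gbp4 was at 33.7, 32.0, 33.7 and 28.4 CPM in wild-type and at 9.83, 9.30, 9.67 and 8.94 CPM in V338Y mice. All 4 V338Y mice stayed under 10 CPM, and Gbp4 fell by 1.77 ± 0.08 (adjusted p = 1.7e-16). Igtp was at 26.1, 24.8, 24.1 and 28.3 CPM against 11.5, 10.2, 10.9 and 11.8 CPM. Igtp thus had well under the wild-type level in each V338Y mouse (-1.21 ± 0.08, adjusted p = 3.02e-12). Irgm2 was at 25.4, 26.6, 25.8 and 26.5 CPM against 12.3, 10.1, 9.67 and 12.8 CPM (-1.23 ± 0.09, adjusted p = 1.17e-11). The neighbouring genes Tgtp1 and Tgtp2 are close copies whose reads the counting could split, and their log2 fold changes were -1.58 and -1.85. Gbp2 (-0.90), Gbp3 (-0.75) and Gbp7 (-0.67) fell less, and their groups were also apart (adjusted p at most 6.68e-09 for each).

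**Figure D4:**
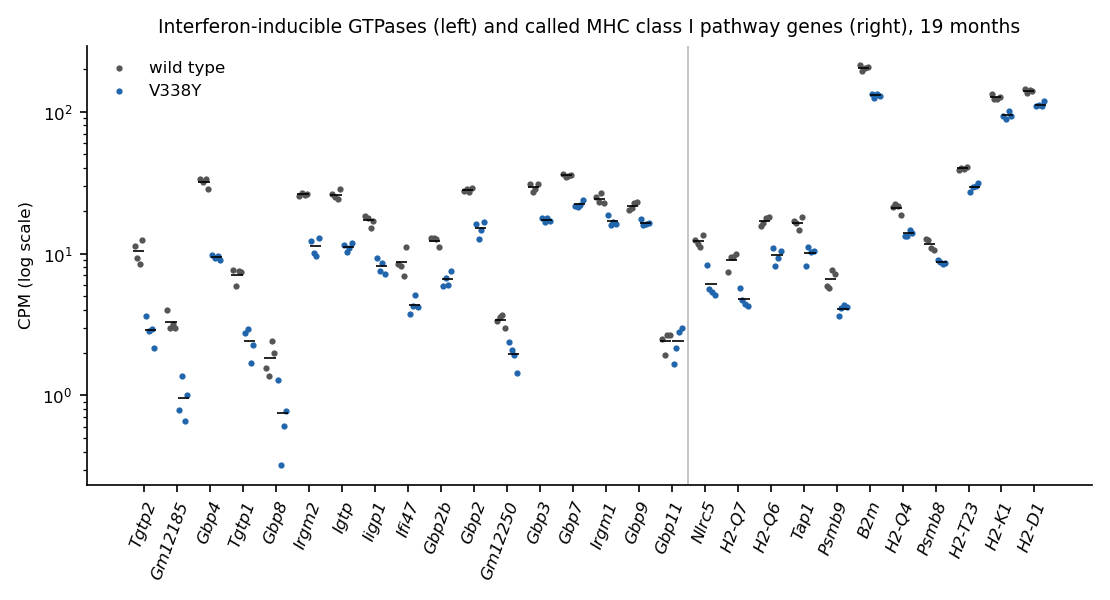
CPM (log scale) of the 17 tested interferon-inducible GTPases, left, and of the 11 called genes of MHC class I presentation, right, in each of the 8 mice at 19 months; dark grey points are wild-type mice, blue points V338Y mice and bars group means. Gbp11 is the gene on the left whose groups overlap, and B2m is the gene on the right that lies near Mrps5.

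MHC class I presentation, by which cells show peptides of their own proteins to T cells, was lower as well. Of 18 tested genes of that list, 11 were called, all lower, with a median of -0.42, beside -0.001 and 1.92% called lower over all genes. The summed level was 763 to 798 CPM in wild-type and 573 to 597 CPM in V338Y mice. Both the count and the sum include B2m, which lies near Mrps5. Its mean was 204 CPM in wild-type and 130 CPM in V338Y mice. Among the heavy chains, H2-K1 was at 133, 124, 122 and 126 CPM against 93.7, 88.6, 101 and 93.4 CPM. Its groups were apart (-0.42 ± 0.04, adjusted p = 1.04e-07), and H2-D1 (-0.33), H2-T23 (-0.42), H2-Q4 (-0.60), H2-Q6 (-0.81) and H2-Q7 (-0.93) were lower too. H2-Q6 and H2-Q7 are similar in sequence, and the split of reads between them is uncertain. Nlrc5, the transactivator of the class I genes, was at 12.5, 11.7, 11.1 and 13.6 CPM against 8.36, 5.59, 5.34 and 5.13 CPM, and V338Y mouse 17 was the highest of its group (-1.03, adjusted p = 2.98e-06). Tap1, a subunit of the peptide transporter, fell by 0.70, and the immunoproteasome subunits Psmb8 and Psmb9 by 0.45 and 0.66. Tap2, Tapbp, Erap1, Psmb10, Psme1, Psme2 and H2-M3 were not called.

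Of 25 tested genes of the general interferon response, 10 were called, all lower, beside 1.92% of all genes called lower. The median was -0.31, beside -0.001 over all genes. Besides Gbp2 and Gbp3 the called genes included Ifit2 (-0.28), Ifit3 (-0.37), Ifi44 (-0.65), Oasl2 (-0.53), Bst2 (-0.42), Ifitm3 (-0.37) and Ddx58 (-0.31). Oasl2, of the oligoadenylate synthetase family, was at 9.47, 11.05, 10.36 and 9.76 CPM against 6.98, 7.15, 6.62 and 7.51 CPM, without overlap. Irf7, Irf9, Stat2, Isg15 and Rsad2 did not pass the test. In the fit of all 16 mice, 2 genes of this list, 9 of the class I list and 14 of the GTPases were called. MHC class II, which displays peptides taken up from outside, had 3 of 7 genes lower, beside 1.92% of all genes, H2-Aa (-0.96), H2-Ab1 (-0.63) and Cd74 (-0.70), and from 0 to 4 over the alternatives. The immunoglobulin chains Igkc (-1.62) and Ighm (-0.50) were lower too, out of 5 tested chains that were chosen after their values were seen.

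At 3 months the GTPases did not show this difference. The levels of Gbp4 were 2.14, 1.96, 1.09 and 2.56 CPM in wild-type and 2.54, 1.803, 2.66 and 2.38 CPM in V338Y mice, so the groups overlapped at a level far under that of the old mice. The difference of the log2 fold changes, 19 minus 3 months, was -2.02 (adjusted p = 5.63e-05). Of 14 GTPases tested at 3 months, 12 were above 0, with a median of 0.21, and 1 had an unadjusted p under 0.05. The difference between the ages was called for 5 of the GTPases, Gbp4, Igtp (-1.50), Irgm2 (-1.35), Gbp7 (-0.81) and Tgtp1 (-2.52), and further for Tap1 (-1.09), the lysosomal amidase Naaa (-0.61), the matrix proteoglycan Fmod (-0.87) and the phosphatase Ptprv (-1.18). B2m was lower at both ages, with 47.2 to 54.5 against 31.4 to 43.8 CPM at 3 months (log2 fold change -0.44, adjusted p = 0.282). H2-Ab1 had a log2 fold change of -1.01 at 3 months (adjusted p = 0.926), with groups apart. No difference between the ages was called in the class II list or in the interferon response.

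Cell type markers moved beside these genes. The 12 microglia markers summed to 698 to 716 CPM in wild-type and 628 to 683 CPM in V338Y mice. Of these, 3 were called lower, beside 1.92% of all genes, among them Csf1r (-0.16) and Trem2 (-0.26). Cx3cr1 (-0.06), P2ry12 (-0.03) and Tmem119 (0.00) were not called. The count of microglia markers was 0 with DESeq2, library size only, the fit of all 16 mice, thinning, the meningeal covariate and without wild-type mouse 15 or V338Y mouse 18, 19 or 20, and 6 with the choroid plexus covariate. Of 12 meningeal fibroblast markers, 4 were called lower, among them Slc22a6 (-0.62) and Slc6a13 (-0.48), and 1 higher (Col1a1, 0.25). Over all genes it was 1.92% lower and 1.19% higher. The sum of the 12 markers was 1927 to 2496 CPM in wild-type and 1502 to 2139 CPM in V338Y mice, and none was at 0. When that sum was made a covariate, a choice made with the values known, 112 genes were called in all, 12 of the GTPases, 8 of the class I list and 2 of the interferon response. The 7 tested blood markers summed to 494 to 954 CPM against 451 to 529 CPM, with a median of -0.50, and none was called by edgeR or DESeq2 (2 at an unadjusted p under 0.05).

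Extracellular matrix genes were mostly lower. Of 53 tested, 13 were called lower and 1 higher, beside 1.92% and 1.19% of all genes, and the median was -0.15. Fmod, a collagen-binding proteoglycan, was at 41.6, 42.7, 38.4 and 35.9 CPM against 31.7, 21.9, 24.6 and 23.8 CPM, with V338Y mouse 17 closest to the wild-type mice (-0.67 ± 0.09, adjusted p = 0.000413). Ogn (-0.64), Bgn (-0.55), Dcn (-0.24), elastin (Eln, -0.55), von Willebrand factor (Vwf, -0.42), Lama2 (-0.20), Lama4 (-0.27), Fbln1 (-0.38), Thbs2 (-0.25), Itga1 (-0.26), Itga6 (-0.24) and Timp3 (-0.30) were also lower, and Col1a1 was the one that rose (0.25). With the meningeal fibroblast sum as a covariate, 0 of the 53 were called lower and 1 higher, the median was -0.07 and Fmod had -0.34; the marker list and the matrix list share Col1a1, Col1a2, Dcn and Lum, and the part of the markers in the result was not tested. DESeq2 called 13 lower, and the fit of all 16 mice 5. Of 10 pericyte and smooth muscle markers, Cnn1 (-1.66) and Myh11 (-0.74) were called lower, beside 1.92% of all genes, and the highest member was at 0.34. Cnn1 was low, at 1.48 to 4.11 CPM in wild-type and 0.61 to 1.11 CPM in V338Y mice. Myh11 lost its call in 9 of 21 alternatives, among them each fit that left out a V338Y mouse. At 3 months the median of the matrix list was 0.05.

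Complement and inflammation genes had 6 of 32 tested members lower, beside 1.92% of all genes, and none higher. Serping1, an inhibitor of C1, was at 21.5, 25.7, 21.5 and 19.4 CPM against 17.2, 14.1, 16.03 and 13.95 CPM (-0.55 ± 0.09, adjusted p = 0.000138). C4b (-0.33), Serpina3n (-0.46), Vcam1 (-0.30) and Itgax (-0.67) were lower too. The count ranged from 0 to 9 over the alternatives.

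Nuclear genes of oxidative phosphorylation were slightly and broadly higher. Over complexes I to V, 70 of 79 tested subunits had a log2 fold change above 0, where 49.7% of all genes did, and their median was 0.10. Of the 79, 5 were called higher, beside 1.19% of all genes, and none of the subunits was called lower. Among the 5 were Uqcr11 of complex III, Cox7a2l and Ndufa4 of complex IV and Atp5e of complex V. The summed level was 8135, 7813, 7957 and 7809 CPM in wild-type and 8312, 8373, 8576 and 8481 CPM in V338Y mice. All 4 V338Y sums lay above the highest wild-type sum, by a few percent. Atp5e was at 46.1, 47.5, 43.4 and 48.5 CPM against 54.3, 50.8, 54.9 and 53.4 CPM (0.21 ± 0.05, adjusted p = 0.0256). DESeq2, the fit of all 16 mice and the meningeal covariate called 0 of the 79, scaling by library size only called 13, and 36 had an unadjusted p under 0.05. At 3 months, 56 of the 79 were below 0. Cell type markers moved beside these genes, with medians of 0.09 for 12 neuronal, -0.10 for 12 astrocyte, -0.16 for 12 microglia, -0.12 for 12 endothelial and -0.21 for 10 pericyte and smooth muscle markers, and their part in the result was not tested.

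The genes encoded by mitochondrial DNA, which the mutant ribosome translates, went the other way in 7 of 9 tested. The list has 13 such genes, of which 9 passed the count filter and 1 was at 0 in all 8 mice. Most of their summed level was mt-Co1, so the direction covers only part of these genes. The gene mt-Co1, for a catalytic subunit of complex IV, was at 10010, 8743, 8814 and 9731 CPM in wild-type and at 8325, 8303, 8401 and 8709 CPM in V338Y mice. The highest V338Y mouse lay just under the lowest wild-type mouse, and mt-Co1 fell by 0.15 ± 0.04 (adjusted p = 0.0389). The other 8 summed to 2145, 2270, 2583 and 2439 CPM in wild-type and to 1970, 1976, 1991 and 2444 CPM in V338Y mice, where mouse 20 was as high as the wild-type mice. The median over the 9 genes was -0.19. The gene mt-Co1 was called in 10 of 21 alternatives. DESeq2 called 2 of the 9 lower, and the fit of all 16 mice 0.

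**Figure D5:**
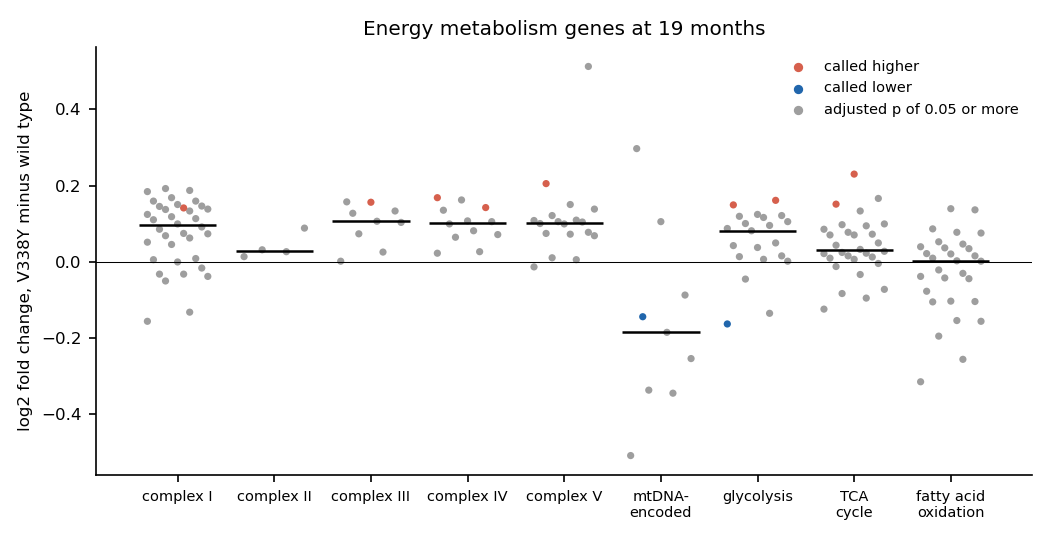
Log2 fold change (V338Y minus wild type, 19 months) of the tested genes of each list of energy metabolism; points are genes, coloured where called, and bars are medians. The 5 nuclear complexes have medians from 0.03 to 0.11, and the genes encoded by mitochondrial DNA a median of -0.19.

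In glycolysis, 18 of 21 genes were above 0, beside 49.7% of all genes, and 3 were called (14.3%), beside 3.12%. Eno2 (0.16) and Pkm (0.15) rose and the glucose carrier Slc2a1 fell by 0.16, with 0 to 6 called over the alternatives. Eno2, the neuronal enolase, was at 479, 506, 489 and 487 CPM against 524, 535, 577 and 557 CPM. The mitochondrial pyruvate carrier Mpc1 (0.23, adjusted p = 0.0166) and Ogdhl (0.15) were the called genes of 30 in pyruvate entry and the TCA cycle. Got2 (0.17) and Mdh1 (0.16) were those of 13 in the malate-aspartate shuttle and glutamate entry. All of these were higher, beside 1.19% of all genes called higher. Fatty acid oxidation (30 genes, median 0.00), assembly factors of oxidative phosphorylation (50 genes, median 0.07), the mitochondrial ribosome (28 and 48 genes, medians 0.04 and 0.07) and mitochondrial chaperones and proteases (22 genes, median 0.04) had no gene called by edgeR's quasi-likelihood test or DESeq2, and 4, 10, 3, 8 and 4 genes at an unadjusted p under 0.05. Other settings called at most 2 genes of any of these lists, the exact test 1 of the assembly factors. Of 23 targets of the integrated stress response, the cystine carrier Slc7a11 alone was called (4.35%, near the 3.12% of all genes), lower by 0.29. Slc7a11 lost its call in the fit of all 16 mice and with the meningeal covariate. Of 4 mitochondrial genes picked because RT-qPCR assays exist for them, Mpc1 and the peroxiredoxin Prdx5 (0.20, adjusted p = 0.0101) rose, and Cox11 (0.23, adjusted p = 0.25) and Atp5s (0.25, adjusted p = 0.27) did not pass, each with overlapping groups.

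A further set of large changes concerned gene copies. Of the 244 tested pseudogenes 18 were called, beside 3.12% of all genes. All 18 lie elsewhere than near Mrps5, as do 236 of the 244 tested. The called pseudogenes with at least a 2-fold change, together with the copies Eif3j2 and Eno1b, made 15 copies. Each was aligned to the transcripts of all tested protein-coding genes, and the most similar one had 95.8% to 99.9% identity. Of the 15 copies 12 were higher and 3 lower in V338Y. Summed with its parent, the groups overlapped for 9 of the 15, in several of which the parent is so much more abundant that the copy hardly changes the sum. For 5 the sum was lower in V338Y without overlap, and for Eno1b with Eno1 it was higher (298 to 322 against 324 to 329 CPM). The parents of those 5 were Eif3j1, Pcna and Spg11, all within 20 Mb of Mrps5 and called lower themselves, and Rplp0. Rplp0 is the parent of both Gm8730 and Gm9625, so these 5 are not separate cases across the genome.

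Gm8730, on chromosome 8, is 98.7% identical to Rplp0 over its 954 bases. It was at 3.44, 3.07, 2.54 and 4.30 CPM in wild-type and at 18.2, 19.2, 20.05 and 17.9 CPM in V338Y mice. Rplp0 itself, a protein of the large subunit of the cytosolic ribosome on chromosome 5, was at 158, 159, 163 and 152 CPM against 114, 111, 113 and 120 CPM. The copy was several times higher and the parent lower in every V338Y mouse (2.53 ± 0.12, adjusted p = 7.56e-16, and -0.47 ± 0.04, adjusted p = 1.15e-09). With Gm8730 and a second copy, Gm9625, added, the sum was 163, 163, 167 and 158 CPM against 138, 136, 139 and 143 CPM, still apart. How close the copies are is shown by bases 366 to 455 of the alignment, in capitals where they differ (3 of 90 bases).
Rplp0: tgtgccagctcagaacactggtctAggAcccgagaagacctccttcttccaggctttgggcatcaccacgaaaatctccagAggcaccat
Gm8730: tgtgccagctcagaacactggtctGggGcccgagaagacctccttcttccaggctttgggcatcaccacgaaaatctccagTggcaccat
A read that falls between such positions cannot be told apart between the genes, so these values depend on how the counting shared it.

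Eif3j2, on chromosome 18, is 99.4% identical to Eif3j1 near Mrps5. It had 3 counts over the 4 wild-type and 420 over the 4 V338Y mice, a ratio of rates of 93.0 with an exact 95% interval of 31.6 to 453 for counting error, and its level in V338Y mice was 5.92 to 7.47 CPM. Eif3j1 and Eif3j2 together were at 16.8 to 20.5 CPM in wild-type and 11.96 to 15.2 CPM in V338Y mice, so the sum was lower as well. Eno1b was at 0 in all wild-type mice and at 4.17 to 4.55 CPM in V338Y mice, at least 8.73-fold higher against 3 counts per library. Gm6969, a copy of Cox7a2l, went the opposite way, with 285 against 7 counts (a ratio of 61.3, interval 29.3 to 154). Cox7a2l and Gm6969 together were at 82.6 to 85.9 CPM in wild-type and at 83.5 to 88.3 CPM in V338Y mice, and these ranges overlapped, unlike those of Cox7a2l alone, one of the 5 called subunits. Gm6969 was split within both genotypes at 3 months, at 8.94, 0.136, 0.182 and 8.90 CPM in wild-type and 9.69, 0.0515, 8.50 and 0.244 CPM in V338Y mice. Gm11847, a copy of Hnrnpa3, was at 0.496 to 1.64 CPM against 7.47 to 9.01 CPM, and the sum with Hnrnpa3 overlapped (52.8 to 55.4 and 51.5 to 53.5 CPM).

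Of 12 neuronal markers, 3 (25%) were called higher, beside 1.19% of all genes, and the median was 0.09. Nefm (0.26), Tubb3 (0.22) and Eno2 rose. Among other markers, the interneuron calcium buffer Pvalb (0.40), the ciliary factor Foxj1 (0.41) and the myelin gene Cnp (0.17) rose, and the astrocyte genes Slc1a3 (-0.17) and Gjb6 (-0.16) fell. Pvalb, also on the cerebellum list, was the only call among 12 interneuron markers (median 0.04). Of 15 myelin genes 2 were called higher (median 0.03), and of 10 oligodendrocyte markers 0 were called (median 0.02). Of 12 astrocyte markers 2 were called lower (median -0.10), beside 1.92% of all genes. Pvalb was at 35.9, 33.6, 35.5 and 30.1 CPM against 42.3, 42.8, 49.1 and 44.7 CPM, with all V338Y mice above the wild-type mice. Among 20 immediate early genes, which neuronal activity switches on, Arc (-0.21), Nr4a1 (-0.26) and Btg2 (-0.32) were called lower, beside 1.92% of all genes. The rest of the list, Fos and Egr1 included, was not called, and the median was -0.04. Several other lists of cell types and functions had 1 or 2 genes called, 3.33% to 22.2% of those tested, beside 3.12% of all genes. Heat shock chaperones (18 genes, 5.56%), synaptic vesicle genes (30, 3.33%) and ependyma (8, 12.5%) had 1 higher each. Fatty acid and sterol synthesis (27, 7.41%) had 2 higher and endothelial markers (12, 16.7%) had 2 lower. Cortical projection neurons (16, 12.5%) and oligodendrocyte precursors (9, 22.2%) had 1 in each direction. The clock list (19 genes) and the glutamate and GABA receptors (36 genes) had 0 genes called by edgeR and DESeq2, and 3 and 4 at an unadjusted p under 0.05.

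The pituitary hormones Prl (prolactin) and Gh (growth hormone) were among the largest decreases elsewhere. Prl was at 59.4, 73.3, 54.8 and 93.3 CPM in wild-type and at 17.3, 15.3, 14.1 and 13.1 CPM in V338Y mice (-2.23 ± 0.20, adjusted p = 0.00267), and Gh fell by 2.44 (adjusted p = 3.34e-09). Prl lost its call with the meningeal covariate. Of 4 tested pituitary markers 2 were called lower, beside 1.92% of all genes, and 1 was above 0 (0.89). How much pituitary tissue each sample held was not tested. The summed level of 7 pituitary markers was 74.6 to 114 CPM in wild-type and 20.8, 24.3, 25.03 and 70.3 CPM in V338Y mice. The high V338Y value was that of mouse 20, whose Pomc was at 56.5 CPM against 5.21 to 8.71 CPM in the other V338Y mice. Lower elsewhere were also Apol11b (-2.43), the protease Ctse (-2.13), the nucleic acid sensor Zbp1 (-1.42) and the matrix protein Prg4 (-1.11), and the replication helicase subunit Mcm6 (0.88) and the dopamine transporter Slc6a3 (0.65) were higher, all 6 chosen after their values were seen.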

How the data were processed

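RNA was sequenced from 16 mice, of which the 8 aged 19 months are compared here. The authors deposited counts per gene, handled here like estimated counts because the study's methods credit them to RSEM with Ensembl release 75, whereas the submitters' processing notes name bcl2fastq 1.8.4, STAR 2.4.2a, featureCounts and GRCm38. All 626864 values are whole, as featureCounts values or rounded RSEM values would be, so the tool is not settled. The methods name a stranded mRNA kit and also ribosomal depletion. In the deposited table the 1495 values of at least 10000 carry 4 significant digits, so the most abundant genes are slightly coarse. Since the values were whole, rounding changed none, and genes reaching 10 counts in 2 or more of the 4 animals of a group were kept, and groups were compared with edgeR 4.0.16 (TMM, robust quasi-likelihood test, Benjamini-Hochberg adjustment over all genes) in R 4.3.3. The mice are separate animals, so p-values reflect the spread between animals. The 3-month mice were fitted alone, and the difference between ages as an interaction in all 16 mice. DESeq2 1.42.0 was an alternative. Positions come from GENCODE M21 (GRCm38), and copies were aligned with BLAST 2.17.0 to transcripts of tested protein-coding genes. The fit was tested on simulated data. Intervals and limits for counts cover counting error only.

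Named genes were Mrps5, the 12 genes near Mrps5 and the 12 elsewhere with the largest change among called genes whose groups were apart and whose higher group averaged 50 normalized counts or more, the 2 called members of each list with the smallest p in each direction, the RT-qPCR genes, up to 5 called genes of the other comparisons and the top 2 markers of each marker list. Further members of lists were named after their values were seen. The genes, lists and tests were chosen with earlier results of these data known. Single values of some genes counted in the lists are not reported here.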

Additional observations from a re-analysis of the deposited data

Results flagged for a closer look

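Of 268 groups of 4 mice tested for a mouse far from the others, 19 had one, where chance gives about 1 in 20. The groups come from the same mice and are not independent, so the 19 are a description only. Among genes, Lamp5 was at 61.9 CPM in wild-type mouse 13 against 66.8 to 67.7 in the others, Eif3j2 at 0.235 CPM in wild-type mouse 12 and 0 in the rest, Tgtp1 at 5.89 CPM in wild-type mouse 13 against 7.44 to 7.60, and Itgax at 6.56 CPM in wild-type mouse 14 against 5.95 to 5.97. Gh stood at 5.79 CPM in wild-type mouse 15 and at 1.57 CPM in V338Y mouse 17. Naaa was at 37.1 CPM in V338Y mouse 20, and ENSMUSG00000028269, a gene with no symbol that fell by 2.14 on the log2 scale, at 2.39 CPM in V338Y mouse 19.

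Among summed levels of lists, V338Y mouse 17 was apart 4 times. Its sum was 2110 CPM for complex I (the other V338Y mice 2140), 1760 CPM for complement and inflammation (1490 to 1520), 683 CPM for microglia (628 to 631) and 627 CPM for oligodendrocyte precursors (585 to 591). V338Y mouse 20 stood apart in the genes encoded by mitochondrial DNA (11200 CPM against 10300 to 10400) and in pituitary markers (70.3 CPM against 20.8 to 25), and V338Y mouse 18 in MHC class I presentation (573 CPM against 595 to 597). Wild-type mouse 13 was low in complex IV (1670 CPM) and high in extracellular matrix (3330 CPM against 3050 to 3100), and wild-type mouse 12 was high in fatty acid oxidation (1840 CPM) and in ER chaperones (2470 CPM).

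The genotype difference itself differed between the ages for 6 of the named genes by the interaction test in edgeR, in which the ages also differ in X- and Y-linked transcripts. The log2 fold change at 19 minus that at 3 months was -2.02 for Gbp4 (adjusted p = 5.63e-05), -2.52 for Tgtp1 (0.0136), -1.50 for Igtp (0.0136), -0.81 for Gbp7 (0.0113), -0.87 for Fmod (0.0324) and -0.61 for Naaa (0.0217).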

How the results depend on the processing

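Against 512 calls over all genes, no filter on counts gave 791, the fit of all 16 mice 116, libraries thinned to the smallest 302, choroid plexus markers as a covariate 784 and meningeal fibroblast markers as a covariate, added after seeing the data, 112. Leaving out one mouse gave 287 to 611. Other settings stayed within 1.5 times (likelihood-ratio test 480, exact test 556, DESeq2 387, RLE 524, library size only 620). Near Mrps5, 42 calls became 27 with all 16 mice and 21 with the meningeal covariate, and 34 to 41 without one mouse. Elsewhere, 470 became 737 with no filter, 89 with all 16 mice, 272 thinned, 732 with the choroid plexus and 91 with the meningeal covariate, and 253 to 570 without one mouse. At 3 months, 10 calls became 26 by the likelihood-ratio test, 28 by the exact test, 26 by DESeq2 and 6 to 13 without one mouse. The difference between ages had 9 calls, 35 by the likelihood-ratio test and 1 to 57 without one mouse (18 without V338Y mouse 15 or 16 at 3 months, and 4 or 5 without wild-type mouse 13, 14 or 15 or V338Y mouse 19 at 19 months). The causes were not tested. Mrps5 (-0.01) changed sign by library size only (0.01), with no filter (0.00), thinned (0.059), with the meningeal covariate (0.071), and without wild-type mouse 12 or 14 or V338Y mouse 20 (-0.036 to 0.023 over all mice left out), never called. Of single-gene values under the alternatives, 1331 kept direction and call and 319 lost the call. No paired analysis was possible because the 19-month groups share no replicate numbers. The smallest library, of 6181448 counts, limits low genes.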
